A study of Mus musculus with 6 samples.

Results

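The 10 genes described here encode enzymes that set the cell's pool of deoxynucleoside triphosphates (dNTPs), the building blocks of DNA. They were taken by name from the deposited gene tables: Rrm1, Rrm2, Rrm2b, Dut, Dctpp1, Samhd1, Dck, Dguok, Dctd and Tk2. All 10 were found among the 41325 gene rows, and all 10 had enough reads to be tested. Bulk RNA-seq gave 6 libraries in all. They came from female ICR mice, an outbred stock, obtained at 10 weeks of age and kept 7 days before treatment. All mice, in both groups, had a commercial chow and water freely and received intraperitoneal 5-fluorouracil (5-FU) at 20 mg/kg per day, 2 injections a week for 3 weeks. In the elemental diet group (3 libraries) they were also given by mouth 1.6 kcal in 0.8 mL per day of Elental, a liquid formula with amino acids in place of whole protein, in 2 doses a day on 5 days a week. In the saline group (3 libraries) they were given the same volume of saline on the same schedule. There was no group without 5-FU, so the question the design allows is how these transcripts differ with the diet under 5-FU.

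Ribonucleotide reductase converts ribonucleotides to deoxyribonucleotides, the step at which all dNTPs made from scratch arise. It joins a large subunit, encoded by Rrm1, to a small subunit that is encoded either by Rrm2, made mainly in S phase, or by Rrm2b, a p53 target that serves cells outside S phase and the copying of mitochondrial DNA. Other enzymes remove dNTPs from the pool, and kinases salvage deoxynucleosides, in the cytosol through Dck and in mitochondria through Dguok and Tk2. A 5-FU metabolite blocks thymidylate synthase, which starves cells of dTTP and lets dUTP, the substrate of the Dut product, accumulate.

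The libraries held 29053287 to 33073125 reads assigned to genes. The tissue label is salivary gland and names no particular gland, and the marker levels that follow go against it. Of 10 salivary epithelial markers, 4 had no read in any library (Smgc, Pip, Bpifa1 and Prb1), 3 had enough reads to be tested, and the summed level of the list was 1.17 to 2.77 TPM with elemental diet and 2.76 to 4.30 TPM with saline. TPM is the authors' level of a gene, scaled for exon length and for the library's total. Transcripts that mark erythroid, neutrophil and lymphoid cells were far higher than these. The summed level of 10 erythroid markers ranged over 5231 to 5795 TPM with elemental diet, against 264 to 345 TPM with saline, and that of 8 proliferation markers over 1692 to 1912 TPM and 77.1 to 80.1 TPM. For 8 B cell markers the sums were 559 to 641 TPM with elemental diet, against 5380 to 5667 TPM with saline, for 8 T cell markers 47.0 to 52.6 TPM and 395 to 476 TPM. For 8 macrophage and dendritic cell markers they were 183 to 230.1 TPM with elemental diet, against 539 to 648 TPM with saline, and for 8 neutrophil markers 499.5 to 588 TPM and 19.1 to 27.1 TPM. By edgeR's test all 10 erythroid, all 8 proliferation and all 8 neutrophil markers rose with elemental diet, all 8 B cell and all 8 T cell markers fell, and of the macrophage and dendritic cell markers 6 fell and 2 rose. In bulk libraries fewer cells of a type and less RNA per cell cannot be told apart, and the part of these cell types in the results below was not tested.

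Of the 10 genes, 6 rose with elemental diet and 4 fell, and the split ran through every role. Among the reductase subunits Rrm1 and Rrm2 rose while Rrm2b fell. Among the enzymes of removal Dut and Dctpp1 rose while Samhd1 fell, and in salvage the cytosolic enzymes Dck and Dctd rose while the mitochondrial kinases Dguok and Tk2 fell. In the fit over all 18303 tested genes, edgeR's quasi-likelihood test at a Benjamini-Hochberg adjusted p of 0.05 called 38.0% of genes higher and 40.2% lower. The 2 groups did not overlap in CPM (the CPM of a gene being its reads scaled to library size with TMM factors) for any of the 10 genes, against 81.0% of all tested genes, so neither the number of calls nor the lack of overlap sets these genes apart. The log2 fold changes of the 10 genes ran from -1.87 to 5.77 with a median of 1.77, beside a median of -0.08 over all tested genes. The direction balance over all genes depended on the scaling, with 6951 higher and 7352 lower under TMM, 5601 and 9051 under upper quartile scaling, and 5408 and 9262 without scaling; the 10 genes stayed at 6 higher and 4 lower under each.

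**Figure D1:**
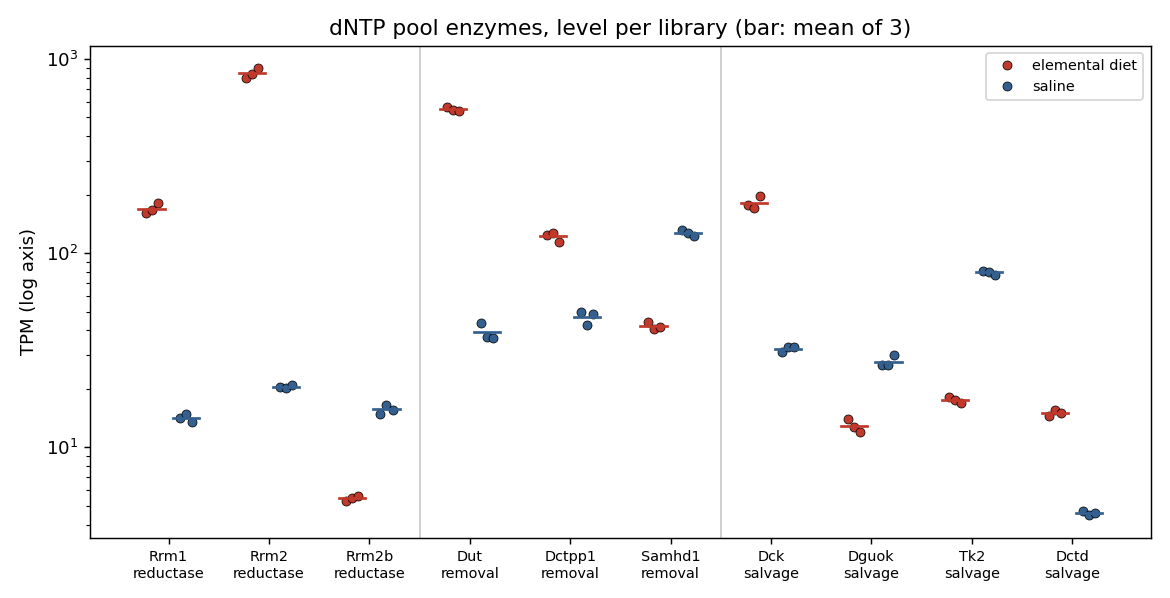
Level of each of the 10 transcripts in every library, in TPM on a log axis, with elemental diet libraries left and saline libraries right for each gene and bars at the mean of 3. The points of the 2 groups do not overlap for any gene; Rrm2 lies near 844 TPM with elemental diet, against 20.6 TPM with saline.

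Rrm2 (ENSMUSG00000020649, GRCm38 chromosome 12, 24708241 to 24714146, plus strand) changed most of the 10. It had 799.6, 835.5 and 895.4 TPM in the elemental diet libraries, against 20.39, 20.27 and 20.99 TPM in the saline libraries. The elemental diet libraries lay far above all saline libraries, with close replicates in each group. In normalized reads this was a 54.6-fold rise (log2 fold change 5.77, SE 0.07, adjusted p = 2.57e-15). Normalized reads are total gene reads, introns included, scaled by TMM, so their folds differ from the ratios of the TPM values, which follow exon reads and lack that scaling. By fold change Rrm2 stood above 99.7% of all tested genes, which is a description of its place and not a test.

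Rrm1 (ENSMUSG00000030978, chromosome 7, 102441695 to 102469771, plus strand), whose product carries the active site and the allosteric sites of the reductase, rose as well but less. Its levels were 161, 166 and 182 TPM with elemental diet, against 14.2, 14.9 and 13.5 TPM with saline (a log2 fold change of 3.95 with SE 0.06, adjusted p = 6.12e-15). The groups were apart in every library, by 15.5-fold in normalized reads. A transcript of unknown type on the same strand, Gm45399, overlaps 1016 bases of Rrm1, with 39 reads in all at elemental diet and 19 at saline. The ratio of Rrm2 to Rrm1 reads did not overlap between groups, at 1.26, 1.29 and 1.25 with elemental diet and 0.354, 0.344 and 0.382 with saline. An exact two-sided permutation test gave p = 0.1 for this ratio, the smallest value that 3 against 3 libraries allow. With saline, which of Rrm2 and Rrm1 was more abundant depended on the length used. There the ratio by TPM was 1.44, 1.36 and 1.55, and per kb of the longest coding transcript 0.659, 0.624 and 0.711.

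Rrm2b (ENSMUSG00000022292, chromosome 15, 37923952 to 37961318, minus strand) went the other way. It stood at 5.28, 5.47 and 5.63 TPM with elemental diet, against 14.9, 16.6 and 15.6 TPM with saline, so that every elemental diet library was lower than every saline library. The fall was 2.12-fold in normalized reads (log2 fold change -1.08, SE 0.07, adjusted p = 4.80e-09). An antisense transcript, Gm49085, overlaps 848 bases of Rrm2b. It held 32 reads over the elemental diet group and 108 over the saline group, few beside the 562, 690 and 583 reads of Rrm2b per elemental diet library and the 1547, 1658 and 1543 per saline library. Reads of Rrm2b and of the antisense transcript cannot be told apart where counting ignores strand, and strand use is not stated.

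The alternative small subunits changed places in read number. Within a library, Rrm2 had 41.6, 39.5 and 43.4 reads for each Rrm2b read with elemental diet, against 0.374, 0.335 and 0.368 with saline. On the log2 scale the ratio averaged 5.37 ± 0.07 (n = 3, ± SD) with elemental diet, against -1.48 ± 0.08 with saline, a difference of 6.85, and a two-sided exact permutation test gave p = 0.1, again the smallest possible. With Rrm2 higher and Rrm2b lower in every elemental diet library, the groups had to separate in this ratio, so the test adds no support. A ratio within a library does not depend on the scaling between libraries. Which subunit was more abundant in the saline libraries does depend on the length used: per TPM Rrm2 was 1.37, 1.22 and 1.34 times Rrm2b there, and per kb of the longest coding transcript 0.862, 0.770 and 0.847 times.

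Dut (ENSMUSG00000027203, chromosome 2, 125247190 to 125258608, plus strand) encodes the dUTPase, which cleaves dUTP to dUMP, keeps uracil out of DNA and feeds thymidylate synthesis. It had 566, 545.5 and 537 TPM in the elemental diet libraries, against 43.7, 36.8 and 36.8 TPM in the saline libraries. All elemental diet libraries exceeded all saline libraries, by 16.1-fold in normalized reads (log2 fold change 4.01, SE 0.06, adjusted p = 3.54e-15). Its fold change lay close to that of Rrm1.

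Dctpp1 (ENSMUSG00000042462, chromosome 7, 127256959 to 127260709, minus strand) encodes a pyrophosphatase that hydrolyses dCTP and modified forms of it. Its levels were 125, 128 and 114 TPM with elemental diet, against 49.8, 42.8 and 48.5 TPM with saline. The groups were separate, and the rise of 3.32-fold in normalized reads was smaller than that of Dut (log2 fold change 1.73, SE 0.09, adjusted p = 2.36e-10).

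Samhd1 (ENSMUSG00000027639, chromosome 2, 157097533 to 157135265, minus strand) encodes the dNTP triphosphohydrolase that keeps dNTPs low in cells that do not divide, and that in human myeloid cells restricts retroviruses. It was at 44.0, 40.6 and 41.7 TPM in the elemental diet libraries, against 132, 128 and 122 TPM in the saline libraries. Every elemental diet library was lower than every saline library (log2 fold change -1.25, SE 0.05, adjusted p = 1.60e-11), a 2.38-fold fall in normalized reads. Dut and Samhd1 therefore changed rank within the libraries: Dut had 3.36, 3.57 and 3.46 reads per Samhd1 read with elemental diet and 0.0941, 0.0861 and 0.0907 with saline. For that ratio a permutation test, exact and two-sided, again gave p = 0.1, the smallest possible. That outcome was fixed, since Dut had risen and Samhd1 had fallen without overlap, so the test adds no support.

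Dck (ENSMUSG00000029366, chromosome 5, 88764996 to 88783281, plus strand) encodes the cytosolic kinase that phosphorylates deoxycytidine, deoxyadenosine and deoxyguanosine and is needed for lymphocyte development in mice. It had 177, 171 and 198 TPM with elemental diet, against 30.9, 32.8 and 33.1 TPM with saline. This was a 7.28-fold rise in normalized reads with no overlap between groups (log2 fold change 2.86, SE 0.07, adjusted p = 1.13e-13). Dctd (ENSMUSG00000031562, chromosome 8, 48099092 to 48153233, plus strand), the dCMP deaminase that converts dCMP to dUMP for thymidylate synthesis, was the least abundant of the 10 in the saline libraries. It stood at 14.4, 15.6 and 15.0 TPM in the elemental diet libraries, against 4.70, 4.46 and 4.59 TPM in the saline libraries, a 3.49-fold rise in normalized reads (log2 fold change 1.80, SE 0.10, adjusted p = 4.89e-10).

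Tk2 (ENSMUSG00000035824, chromosome 8, 104226685 to 104248558, minus strand) encodes the mitochondrial thymidine kinase, loss of which depletes mitochondrial DNA in humans. It fell furthest of the 10, to 18.3, 17.6 and 16.9 TPM with elemental diet, against 81.0, 80.4 and 77.4 TPM with saline (a log2 fold change of -1.87 with SE 0.05, adjusted p = 5.87e-13). The saline libraries lay 3.66-fold above in normalized reads and none came near the elemental diet libraries. Dguok (ENSMUSG00000014554, chromosome 6, 83480217 to 83506969, minus strand), the mitochondrial deoxyguanosine kinase, fell 1.83-fold in normalized reads, the smallest change among the 10. It had 13.9, 12.7 and 11.9 TPM in the elemental diet libraries, against 26.5, 26.4 and 30.0 TPM in the saline libraries (log2 fold change -0.87, SE 0.07, adjusted p = 2.68e-08).

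Within libraries, the ratio of the mitochondrial kinases to each other was lower with elemental diet. Tk2 had 0.928, 0.948 and 0.983 reads per Dguok read with elemental diet and 2.059, 1.984 and 1.699 with saline. Set against the cytosolic kinase, Dck had 8.08, 8.17 and 9.99 reads per Dguok read with elemental diet and 0.659, 0.676 and 0.630 with saline. Each of these ratios was apart between groups, and each gave p = 0.1 in the exact two-sided permutation test, the smallest possible. For Dck to Dguok the separation was fixed, as Dck rose and Dguok fell without overlap. In all, 7 ratios were computed, and with 7 tests at that floor none can pass a correction. The ratios of Rrm2 to Rrm1, Dut to Samhd1, Dck to Dguok and Tk2 to Dguok were not among those planned. Which transcript was more abundant again depends on the length used. With saline, Dck was 1.17, 1.24 and 1.10 times Dguok by TPM, and 0.345, 0.367 and 0.325 times per kb of the longest coding transcript. With elemental diet, Tk2 was 1.31, 1.39 and 1.42 times Dguok by TPM, and 0.466, 0.496 and 0.505 times per kb of that transcript.

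**Figure D2:**
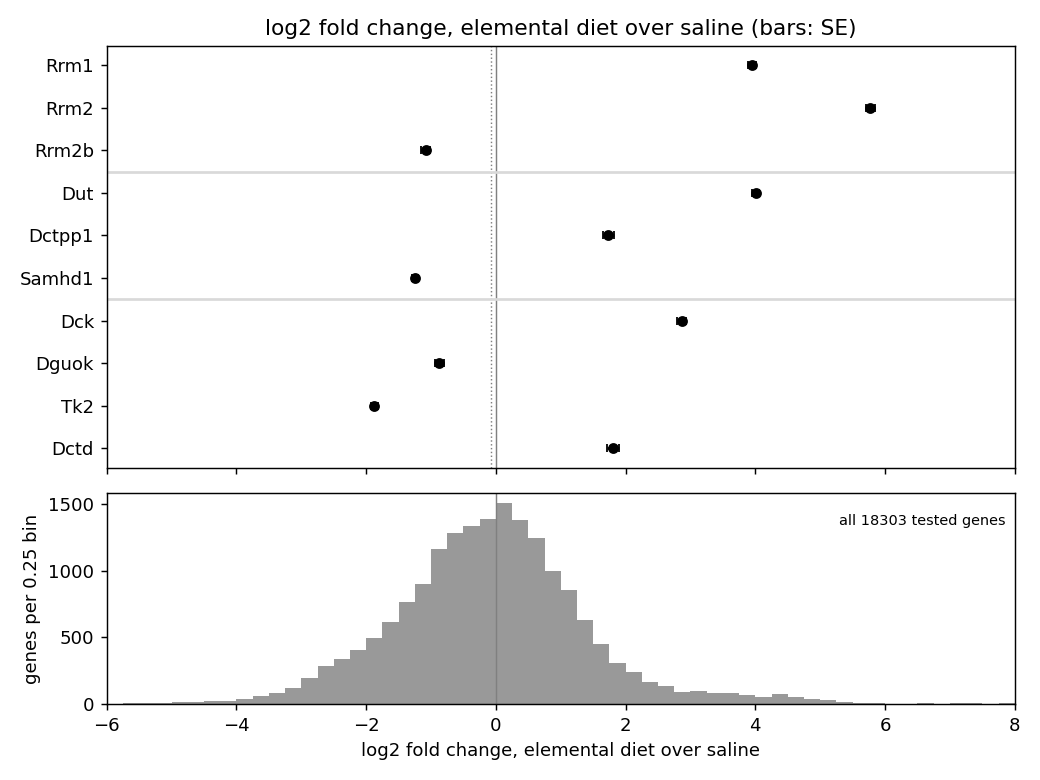
Log2 fold change of elemental diet over saline for the 10 genes (upper panel, points with SE bars, grouped as reductase, removal and salvage; dotted line, median of all genes) above the distribution of all 18303 tested genes (lower panel; genes beyond the ends of the axis are not drawn). Each role holds points on both sides of 0, from -1.87 for Tk2 to 5.77 for Rrm2.

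Ranked by TPM, the order of the 10 transcripts in the elemental diet libraries was Rrm2, Dut, Dck, Rrm1, Dctpp1, Samhd1, Tk2, Dctd, Dguok and Rrm2b. Of neighbours in that order, the TPM values of Dck and Rrm1 overlapped between libraries. In the saline libraries the order was Samhd1, Tk2, Dctpp1, Dut, Dck, Dguok, Rrm2, Rrm2b, Rrm1 and Dctd, where Dctpp1 and Dut overlapped and Rrm2b and Rrm1 came within a narrow margin. The enzymes that lead the saline order, Samhd1 and Tk2, are the dNTP hydrolase and a mitochondrial kinase, while the leading pair with elemental diet, Rrm2 and Dut, belong to synthesis and to clearing of dUTP. The authors' TPM uses the length of all annotated exons together, which for Rrm1 is 11012 bases, against 3997 bases for its longest coding transcript. With exon reads per kb of the longest coding transcript, a length chosen after seeing the data, Rrm1 ranked above Dck with elemental diet, and above Rrm2b and Rrm2 with saline. Dguok then ranked above Tk2 and Dctd with elemental diet, and its values overlapped those of Tk2 with saline.

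As shares of the 10 genes' summed TPM, the reductase subunits accounted for 52.0% ± 1.74 (n = 3, ± SD) with elemental diet, against 12.4% ± 0.507 with saline. Enzymes of removal held 36.5% ± 1.97 with elemental diet, against 52.3% ± 1.42 with saline, and the salvage enzymes with Dctd 11.6% ± 0.409 and 35.3% ± 0.959. The shares of the 3 roles did not overlap between groups. In summed TPM itself, each role was higher with elemental diet, also those whose share was lower. The mean sums were 1019 TPM against 50.5 TPM with saline for the reductase subunits, 713.5 against 213.5 for removal and 227 against 144 for salvage. Summed reads of synthesis were 2.06, 2.23 and 2.44 times those of removal with elemental diet, and 0.246, 0.270 and 0.268 times with saline. Against salvage they were 4.59, 4.85 and 4.76 times with elemental diet and 0.529, 0.550 and 0.526 times with saline. Both ratios gave p = 0.1 in the exact two-sided permutation test, the smallest possible, with log2 differences of 3.10 and 3.15. That these differences are alike depends on the use of reads without length scaling. By TPM they were 2.59 against removal and 3.68 against salvage, and per kb of the longest coding transcript 2.80 and 3.77. The summed level of the synthesis genes rests on Rrm1 and Rrm2, and that of the removal genes on Dut with elemental diet and Samhd1 with saline, so these sums do not describe Rrm2b or Dctpp1.

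**Figure D3:**
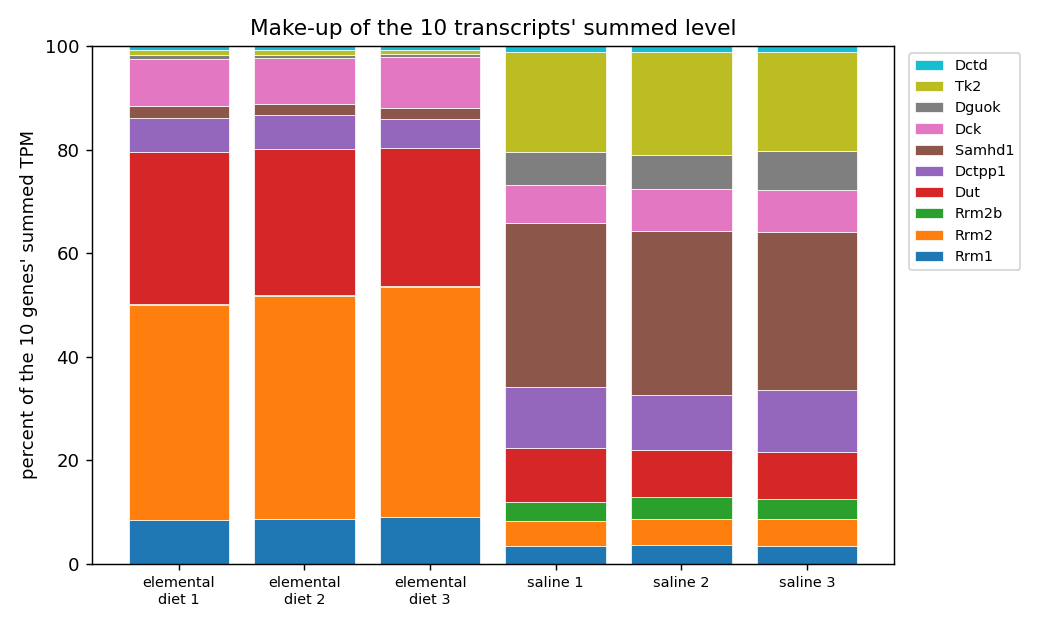
Share of each gene in the summed TPM of the 10 genes, as stacked bars per library, elemental diet left and saline right. Rrm2 and Dut make up 43.0% and 28.1% on average with elemental diet, and Samhd1 and Tk2 31.2% and 19.5% with saline.

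Replicates were close. The coefficient of variation of CPM over 3 libraries ranged from 1.02% for Dut to 8.32% for Dck with elemental diet, and from 1.31% for Dctd to 7.21% for Dguok with saline. Counting error alone gives 0.629% for Rrm2 to 4.04% for Rrm2b with elemental diet, and 0.883% for Samhd1 to 6.61% for Dctd with saline. At least 93.6% of the reads of every member in every library were unique, the lowest share being that of Rrm2b.

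Intron reads, which are a part of the total gene reads tested above, were also looked at on their own. With elemental diet the share of reads in introns was lower for 8 of the 10 genes with no overlap between groups, and the same held for 48.8% of the 16967 tested genes with reads in every library and any intron read. It was higher without overlap for 0 of the 10, against 5.61% of those genes. For Dut it was 9.61% ± 0.390 with elemental diet, against 22.4% ± 2.44 with saline, for Dctd 18.2% ± 1.15 and 34.7% ± 1.55. The small subunits were the exceptions: Rrm2 had 3.89% ± 0.0579 with elemental diet and 4.06% ± 0.317 with saline, and Rrm2b 14.8% ± 2.87 and 13.3% ± 0.242, with overlapping groups. In two-sided exact permutation tests, p was 0.1 for each of the 8, p = 0.4 for Rrm2 and p = 0.8 for Rrm2b. Among the 8, Dctpp1 was apart by a narrow margin, at most 2.33% with elemental diet and at least 2.53% with saline. That lowest saline value rests on 8 intron reads. Over all genes the intron share was also lower with elemental diet, 8.64% ± 0.225 against 14.0% ± 0.341 with saline, and the part of that shift in the 8 genes was not tested.

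The log2 ratios in exon reads and in intron reads had the same sign for 9 of the 10 genes both with TMM factors and with library totals alone; they carry no test of their own. For Rrm2 the log2 ratio of elemental diet to saline was 5.77 in exon reads and 5.71 in intron reads, from 2957 and 69 intron reads. For Tk2 it was -1.76 in exon reads and -2.26 in intron reads, and for Samhd1 -1.18 and -1.80. Dctpp1 had only 50 intron reads with elemental diet, against 55 with saline, and its intron log2 ratio of 0.18 lay well under its exon log2 ratio of 1.79 and turned to -0.13 with library totals alone. Reads that span exon junctions, which come from spliced RNA, gave log2 ratios of 5.90 for Rrm2, 4.31 for Dut and -1.85 for Tk2.

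**Figure D4:**
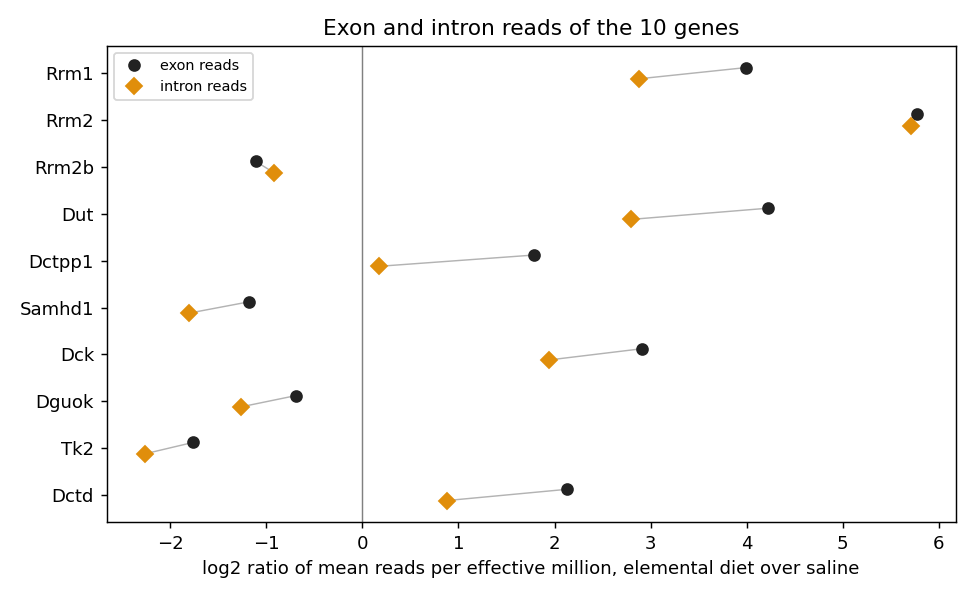
Log2 ratio of mean reads, scaled to effective library size, elemental diet over saline, in exon reads (circles) and intron reads (diamonds) of each of the 10 genes. With these TMM-scaled values both readouts lie on the same side of 0 for each gene, but the intron value of Dctpp1 turns to -0.13 without scaling; they coincide for Rrm2 (5.77 and 5.71) and lie farthest apart for Dctpp1 (1.79 and 0.18).

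Sequences upstream of the starts were compared because members moved together in opposing sets. RefSeq promoters (GRCm38.p6, 250 bases before to 50 after a start) were found for 9 of the 10 genes in 11 windows; Rrm2b had no entry. The CCAAT box, a motif of many promoters, was searched as CCAAT on both strands and stood in the windows of Rrm1, Rrm2, Dctpp1 and Dctd, 4 of 9 genes, against 41.1% of all genes with a window. Those 4 genes all rose, but Dut and Dck rose without it. As the share is near that of all genes, nothing about the direction of change is read from the motif. The 150 bases before the RefSeq start are shown for 3 genes that hold the motif and for Samhd1 and Tk2, which fell and do not hold it. Dut and Dck are not shown, so the printed stretches make a cleaner contrast than the 9 genes do. RefSeq starts need not match the gene coordinates given above. The whole Samhd1 stretch lies inside those coordinates. So do the last bases of the Rrm2 and Dctpp1 stretches, with the Dctpp1 motif nearest the start. Capitals mark CCAAT, or ATTGG where it lies on the other strand.
Rrm2, chr12:24708104-24708253, plus strand: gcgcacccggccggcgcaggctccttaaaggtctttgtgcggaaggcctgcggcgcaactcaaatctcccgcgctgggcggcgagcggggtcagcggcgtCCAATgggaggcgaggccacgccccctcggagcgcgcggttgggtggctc
Rrm1, chr7:102441545-102441694, plus strand: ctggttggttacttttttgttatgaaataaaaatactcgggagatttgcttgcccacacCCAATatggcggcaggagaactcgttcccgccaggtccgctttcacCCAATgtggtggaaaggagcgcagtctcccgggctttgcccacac
Dctpp1, chr7:127260668-127260817, minus strand: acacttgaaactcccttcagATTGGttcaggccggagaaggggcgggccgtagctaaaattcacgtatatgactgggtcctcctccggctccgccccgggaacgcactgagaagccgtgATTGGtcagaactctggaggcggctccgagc
Samhd1, chr2:157135097-157135246, minus strand: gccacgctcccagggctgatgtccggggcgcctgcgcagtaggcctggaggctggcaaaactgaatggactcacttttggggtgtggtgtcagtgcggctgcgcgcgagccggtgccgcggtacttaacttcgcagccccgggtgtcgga
Tk2, chr8:104248559-104248708, minus strand: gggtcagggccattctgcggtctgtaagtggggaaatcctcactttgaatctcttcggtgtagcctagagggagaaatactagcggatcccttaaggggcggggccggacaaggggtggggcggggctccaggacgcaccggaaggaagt

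In Rrm1 the motif began 91 and 45 bases before the start, in Rrm2 50 bases, and in Dctpp1, on the other strand, 130 and 31 bases. An E2F site, searched on both strands as TTTGGCGC, TTTCCCGC, TTTCGCGC or TTTGCCGC, was in 0 of the 9 genes' windows and in 2.60% of all genes with a window. The cell-cycle homology region, searched on both strands as TTTGAA or TTCGAA, was in the windows of Dck and Tk2 and in 21.7% of all genes with a window. These are matches of letters within a short window and show no binding. Lack of an exact match does not show that a site is absent.

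Around the 10 genes, 32 other genes of dNTP supply and removal were all found and tested. Their fold changes are in normalized reads throughout. Of these 22 rose, 5 fell and 5 did not pass, where 38.0% of all tested genes were called higher and 40.2% lower. Their median log2 fold change was 1.21, beside -0.08 over all tested genes. With upper quartile scaling 20 of the 32 rose and 9 fell, and without scaling 20 and 10. The sign of Nt5c, Nt5m, Nudt18 and Slc25a33 turned between scalings. Counts in the smaller groups below are also to be read beside the shares over all genes.

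In the thymidylate branch all 4 genes rose under each scaling. Tyms, thymidylate synthase, stood at 60.8 ± 1.16 TPM (n = 3, ± SD) with elemental diet, against 4.74 ± 0.118 with saline (a log2 fold change of 4.02 with SE 0.06, adjusted p = 4.23e-15). Tk1, the cytosolic thymidine kinase of dividing cells, stood at 119 ± 6.33 TPM with elemental diet, against 14.8 ± 0.491 with saline (a log2 fold change of 2.96 with SE 0.06, adjusted p = 3.86e-14), opposite in direction to its mitochondrial counterpart Tk2. Dtymk, the thymidylate kinase, rose 3.57-fold.

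Of 9 nucleotide kinase genes 8 rose and 1 fell. Nme2, a nucleoside diphosphate kinase, fell 1.67-fold in normalized reads, while its neighbour Nme1 rose 3.06-fold. In TPM, Nme2 was at 150.5 ± 16.8 TPM with elemental diet, against 328 ± 7.97 TPM with saline. The sequences of Nme1 and Nme2 are alike, so the division of reads between them is uncertain. Cmpk2, a mitochondrial UMP-CMP kinase, rose 7.08-fold.

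Of 5 genes of hydrolases that clear damaged or non-canonical nucleotides, Nudt1 (4.02-fold), which clears oxidized purine dNTPs, and Itpa (3.69-fold), which clears inosine triphosphates, rose. Nudt16 was 2.49-fold lower.

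In dephosphorylation and breakdown 7 of 9 genes rose, but 5 rose and 2 fell with upper quartile scaling and 5 rose and 3 fell without scaling. Pnp, purine nucleoside phosphorylase, rose 3.52-fold; mice carry a close copy, Pnp2, so the division of its reads is uncertain. Among 5 carriers, Slc29a1, the equilibrative nucleoside transporter ENT1, rose 4.59-fold, and Slc28a2, a concentrative nucleoside transporter, fell 4.66-fold. In TPM, Slc28a2 was at 8.39 ± 0.295 TPM with elemental diet, against 50.4 ± 1.55 TPM with saline. Mpv17, an inner mitochondrial membrane protein needed to keep mitochondrial dNTPs, fell 1.42-fold, in the same direction as Dguok and Tk2.

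**Figure D5:**
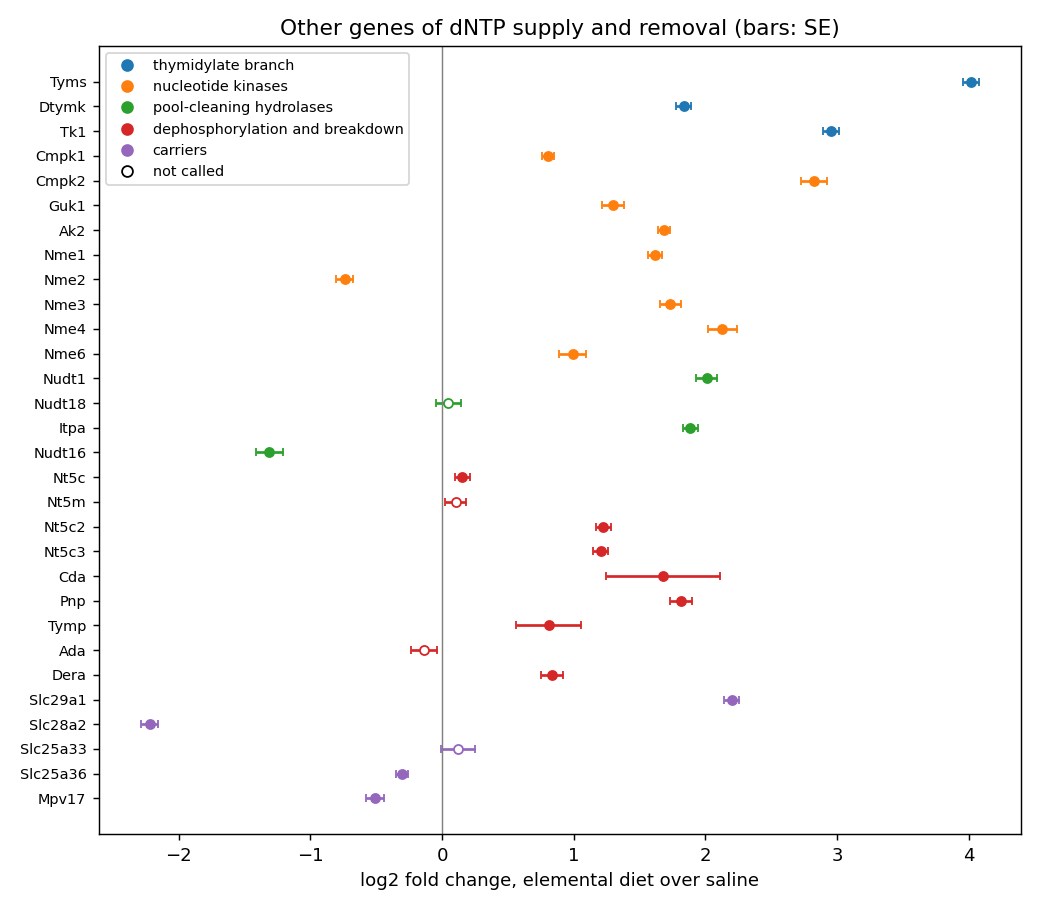
Log2 fold change of elemental diet over saline (points, SE bars) for other genes of dNTP supply and removal, coloured by group, with open points for genes that did not pass the test. Of the genes drawn, Tyms lies highest, at 4.02, and Slc28a2 lowest, at -2.22.

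By Euclidean distance of centred log2 CPM over the 6 libraries, among 13408 candidates, the genes nearest to Rrm2 were Add2 (0.176), Slc26a1 (0.189), E2f8 (0.265), Klf1 (0.324) and Cdc6 (0.337). Klf1, an erythroid transcription factor, averaged 538 CPM with elemental diet and 9.71 CPM with saline, and Cdc6, a replication licensing factor, 286 and 5.45 CPM. Nearest to Tk2 were Soat1 (0.0546), Pxk (0.0675), H2-Q2 (0.0719), L3mbtl3 (0.0783) and Ripor2 (0.0834). The log2 fold changes of the genes near Rrm2 ran from 5.59 to 5.83, beside 5.77 for Rrm2, and those of the genes near Tk2 from -1.88 to -1.83, beside -1.87 for Tk2. Such closeness follows from the way the genes were picked, as the distance mostly reflects the group difference.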

How the data were processed

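Per the labels' protocols, polyadenylated RNA was sequenced as paired 75 bp reads, from RNA that the protocol describes as taken out of fibroblasts or keratinocyte cells. The labels give 3 mice a group without tying a library to a mouse: the p-values rest on spread among libraries, which may be technical. The deposited files, 1 per library, hold whole-number read counts per gene made by the authors, per the file headers (total, unique, exon, intron and exon-exon reads), and TPM and RPKM computed by the authors. Deposited fractions (the intron share and the unique share) were not used but recomputed. The submitters' processing notes name GRCh37 and GRCm38; aligner, counter and strand use: not given in the sources used here.

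Total gene reads were tested with edgeR 4.0.16 in R 4.3.3 (TMM, filterByExpr, robust glmQLFit and glmQLFTest, two-sided, Benjamini-Hochberg over 18303 genes). Each SE was derived from the fold change and its F statistic (log2 change over root F). CPM use TMM factors, and exact permutation tests used scipy 1.17.1. The fit was also run on simulated counts in which few genes changed, in random directions. In these data most tested genes were called, so that simulation does not test the fit under such a condition. Counting error was computed from read numbers alone. Nearest genes (prior count 2) had a mean of at least 1 CPM, leaving out members, clone names, numbered predicted genes and receptor segments. Alternatives were RLE, upper quartile and no scaling, no filter, DESeq2 1.42.0, a replicate block, unique reads, exon reads, non-robust estimation, TPM, and leaving out each library; coding transcript length (GENCODE M21) was added after seeing the data. The members and lists were chosen with earlier results of these data known. Some single-gene results within the counts of other dNTP genes are not reported here.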

Additional observations from a re-analysis of the deposited data

How the results depend on the processing

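The log2 fold changes of the 10 genes kept their direction and stayed past the threshold under all 15 alternatives, leaving out each library included. Rrm2 ranged over 5.46 to 5.83, Tk2 over -2.18 to -1.82 and Dguok, the smallest change, over -1.18 to -0.81. The highest adjusted p of any of them was 1.86e-06, for Dguok. The count of the 32 other dNTP genes that fell moved by over 1.5 times, with 9 under upper quartile scaling and 10 without scaling, against 5. Under those scalings the all-gene median shifted to -0.35 and -0.39 (log2), against -0.08 with TMM. Counts in short lists moved too: the hydrolases that fell were 3 under either, against 1, and those of the breakdown and p53 target genes are given with them. The difference in intron share of Rrm2b turned to -0.34 percentage points with unique reads, with overlapping groups either way. With library totals alone, chosen after seeing the data, the intron log2 ratio of Dctpp1 turned to -0.13. Same-numbered libraries of the 2 groups had deviation correlations of 0.117, -0.00799 and 0.0578. Elemental diet libraries 1 and 3 correlated best with the saline library of the same number, and library 2 with saline library 3 (0.0597). These values do not settle whether the numbers mark pairs, and the numbers were not taken as pairs. With the replicate block 14241 genes were called, against 14303, Rrm2 stood at 5.77, and no call of the 10 genes changed. Precision is limited most for Dctpp1 in introns and for Dctd, which had 220 to 240 reads per saline library.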

Other observations

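Beside Rrm2b, 8 further p53 target genes (Cdkn1a, Mdm2, Ccng1, Sesn2, Bax, Eda2r, Phlda3 and Zmat3) were set side by side with it, since Rrm2b is a p53 target too. Of these 2 rose, 3 fell and 3 did not pass edgeR's test at an adjusted p of 0.05, beside 38.0% higher and 40.2% lower over all tested genes. None of the 8 changed as much as Rrm2b, with log2 fold changes from -0.42 to 0.43, against -1.08 for Rrm2b. With upper quartile scaling, and likewise without scaling, 0 rose and 6 fell, and under RLE 4 rose and 2 fell. The sign of Cdkn1a, Ccng1 and Phlda3 turned between scalings, while the other 5 kept theirs. The summed level of the 8 genes was 507 to 553 TPM with elemental diet and 683 to 709 TPM with saline. These sums lack TMM scaling, under which the median log2 fold change of the 8 was -0.04.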
